A study of Mus musculus with 9 samples.

Results

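The Fanconi anemia (FA) and homologous recombination genes examined here were the 90 genes of the deposited table whose KEGG annotation names either of these pathways and does not name DNA replication, out of 56691 genes listed. Of these 90 genes, 60 belonged to the FA pathway and 44 to homologous recombination, with 14 in both. RNA was sequenced from RAW264.7, a line of mouse macrophages that can be turned into osteoclast-like cells by RANKL, the cytokine that drives osteoclast formation. The 9 libraries fell into 3 groups of 3, namely untreated cells (Ctrl), cells given RANKL, and cells given RANKL together with uridine (UD+RANKL). All cells were cultures of this 1 line harvested after 3 days, RANKL was used at 50 ng/mL by the study's methods, and the uridine dose of these libraries is not given in the sources used here. The comparisons asked how the genes differed after RANKL, whether uridine changed them in RANKL-treated cells, and how far the cells given both stood from untreated cells.

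The FA pathway removes DNA interstrand crosslinks, lesions that tie both strands of the helix together and stop replication forks. A multi-protein core complex places ubiquitin on the FANCI-FANCD2 pair, nucleases then cut around the crosslink, translesion polymerases copy past the lesion, and the broken strand is repaired by homologous recombination, in which BRCA2 and PALB2 prepare single-stranded DNA for the search of an intact copy. Most of these genes are known to be expressed most strongly in dividing cells, in S and G2 phase, while osteoclast precursors leave the cell cycle before they fuse.

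Each gene was measured as the number of reads on it and as FPKM, the read count scaled by exonic length and by the total of the library. Genes with an FPKM of 1 or more in 3 or more libraries were tested, and these were 64 of the 90 genes and 11995 genes in all. Of the 26 genes not tested, 14 had no read in any library. Fan1 was the only gene of the 64 that was under an FPKM of 1 in every library of 1 group, the RANKL group. A role in crosslink repair or recombination could be assigned to 64 of the 90 genes, and 59 of these were tested; the remaining 5, Fancc, Hes1, Sycp3, Rmi2 and Poln, were too low. The other 26 genes had no such role. Among them were 20 predicted genes and pseudogenes, none of which was tested, and 6 named genes that carry the KEGG identifier of a repair gene, namely Zfp276 (that of Fanca), Rffl (Rad51d), Lrrc59 (Eme1), Lurap1 (Rad54l), Dennd2a (Ercc4) and Bola2 (Slx1b).

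Library totals ranged from 15951800 to 19746862 reads, and no library repeated another. Osteoclast markers were higher with RANKL for 11 of the 11 tested, and 9 of 10 macrophage markers were lower. Markers of fibroblasts, endothelium, epithelium, lymphocytes and red cells summed to an FPKM of at most 0.41 in any library, and none of these 14 genes was tested. The third RANKL library was the lowest of its group for 31 of the 64 genes, against 17 and 16 for the others. In the Ctrl group, the third library was the highest for 33 of the 64 genes, against 21 and 10 for the others. The labels call the replicates separate biosamples without naming separate cultures, so p-values measure only the spread between these samples. Fewer cells with active repair genes and less of their RNA in each cell cannot be told apart in bulk RNA.

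Most of the genes that changed were lower with RANKL, and most of those that changed with uridine in RANKL-treated cells were higher. With RANKL against Ctrl, 36 of the 64 genes were lower and 5 were higher at an adjusted p under 0.05, where 30.2% of all genes tested were lower and 27.3% were higher. With UD+RANKL against RANKL, 34 were higher and 4 lower, where 18.6% of all genes tested were higher and 20.2% were lower. With UD+RANKL against Ctrl, 12 were higher and 13 lower, against 26.7% and 27.3% of all genes tested. The median log2 fold change over the 64 genes was -0.30, 0.27 and -0.02 in these 3 comparisons, and over all genes tested it was -0.03, 0.00497 and -0.00208.

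The changes were mostly smaller than 1.5-fold. Only 14 genes were lower and 1 higher by more than 1.5-fold with RANKL (14% and 10.8% of all genes tested), and 8 were higher and 0 lower by that amount with UD+RANKL against RANKL (4.38% and 5.49%). With UD+RANKL against Ctrl, 1 was higher and 0 lower by that amount (9.3% and 12.8%). The 3 comparisons share groups of libraries, so a fall in the first and a rise in the second both rest on the same RANKL libraries. In their FPKM, 43 of the 64 genes had all RANKL libraries below all Ctrl libraries (38.8% of all genes tested) and 4 had them above (22.9%). For 45 genes all UD+RANKL libraries were above all RANKL libraries (34.1%) and for 3 they were below (17.6%). Against Ctrl, the UD+RANKL libraries were all above for 14 genes (29.5%) and all below for 16 (30.4%). Left out in turn, no single library took the number of lower genes with RANKL below 32, or the number of higher genes with UD+RANKL against RANKL below 30. Without the third RANKL library these numbers were 33 and 32.

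The genes fell into patterns by the comparisons that called them. The most common pattern, lower with RANKL, higher again with UD+RANKL and not called between UD+RANKL and Ctrl, was held by 22 genes, among them Palb2, Brca1, Bard1, Blm, Fanca, Fancb, Fancd2, Polh and Eme1. Another 3 genes, Rad54l, Topbp1 and Usp1, were lower with RANKL, higher with UD+RANKL against RANKL and also higher with UD+RANKL than in Ctrl. For Brip1 and Slx4 the UD+RANKL level was higher than with RANKL and lower than in Ctrl. A group of 7 genes, Eme2, Fan1, Fanci, Rad51c, Rad52, Rffl and Rmi1, was lower with RANKL and lower with UD+RANKL, each against Ctrl, and was not called between the RANKL groups. Another 11 genes, among them Rad50, Ercc1, Ercc4 and Mus81, were called in none of the comparisons. The shares of all genes tested that held these patterns were not counted. A fall with RANKL and a rise with UD+RANKL against RANKL rest in part on the same RANKL libraries.

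**Figure D1:**
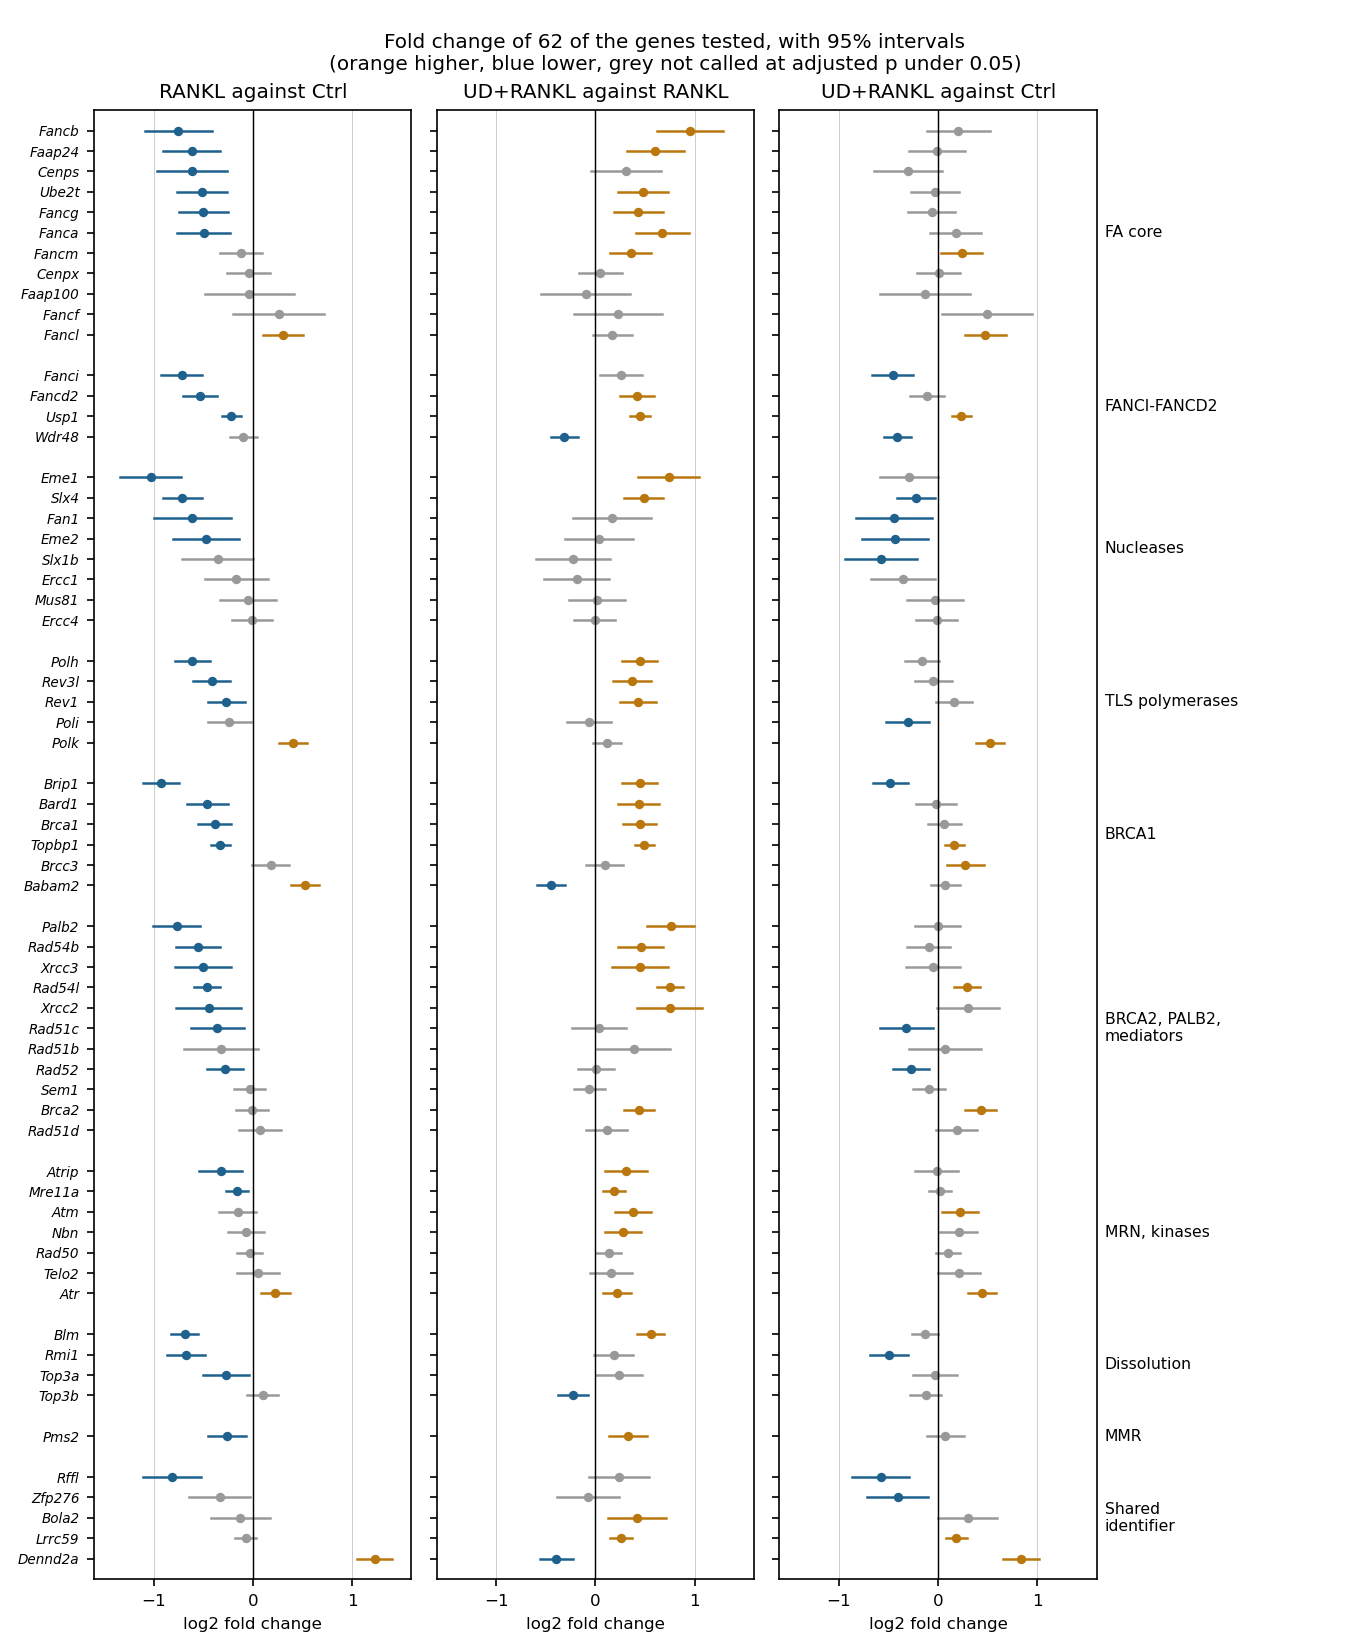
Log2 fold change (points) with 95% interval (lines) of 62 of the 64 genes tested, grouped by role, in each of the 3 comparisons; colour marks genes called at an adjusted p under 0.05. Most points lie left of 0 with RANKL and right of 0 with UD+RANKL against RANKL, where 36 and 34 of the 64 genes were called lower and higher.

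In the FA core complex and its ubiquitin ligase step, 6 of 11 genes tested were lower with RANKL and 1 was higher, and 6 were higher and none lower with UD+RANKL against RANKL. Fancb, an X-linked subunit of the catalytic module, had FPKM values of 3.76, 3.08 and 2.93 in Ctrl, 1.97, 1.58 and 1.9 with RANKL, and 3.25, 4.46 and 3.56 with UD+RANKL. The RANKL libraries were the lowest and did not overlap either other group, and the Ctrl and UD+RANKL libraries overlapped. The log2 fold change was -0.75 ± 0.16 (SE, n = 3 against 3; edgeR adjusted p = 0.000461) with RANKL and 0.96 ± 0.16 (edgeR adjusted p = 6.94e-05) with UD+RANKL against RANKL, the largest rise of the 64 genes in that comparison.

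Fanca, the subunit most often mutated in patients with the disease, was at 1.52, 1.79 and 1.99 FPKM in Ctrl, 1.22, 1.34 and 0.97 with RANKL, and 2.09, 1.95 and 1.93 with UD+RANKL. Its RANKL libraries again lay below all others. It fell by 0.50 ± 0.13 on the log2 scale with RANKL (edgeR adjusted p = 0.00258) and rose by 0.67 ± 0.13 with UD+RANKL against RANKL (edgeR adjusted p = 0.000275). Part of Fanca overlaps Zfp276 on the opposite strand. Fancl, the E3 ligase of the complex, went the other way, with 5.48, 4.76 and 4.87 FPKM in Ctrl, 5.49, 6.12 and 5.97 with RANKL and 6.55, 7.24 and 7.23 with UD+RANKL. All its UD+RANKL libraries were above all RANKL libraries, which were above all Ctrl libraries. Its rise with RANKL, 0.31 ± 0.10 (edgeR adjusted p = 0.0106), was lost without the second Ctrl library (adjusted p = 0.0542) and with scaling to library totals alone (0.0607), and its difference of 0.48 ± 0.10 between UD+RANKL and Ctrl (edgeR adjusted p = 0.000286) was kept in each alternative run.

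The FANCI-FANCD2 pair is the substrate that the core complex marks, and USP1 with its partner WDR48 removes the ubiquitin again. Fancd2 was at 6.07, 5.91 and 5.68 FPKM in Ctrl, 3.89, 3.35 and 4.24 with RANKL, and 5.33, 5.72 and 5.28 with UD+RANKL. The RANKL libraries stood below both other groups. Its log2 fold change was -0.53 ± 0.08 with RANKL (edgeR adjusted p = 1.2e-05) and 0.42 ± 0.08 with UD+RANKL against RANKL (edgeR adjusted p = 0.000403). Fanci was at 3.76, 3.70 and 4.26 FPKM in Ctrl, 2.24, 2.29 and 2.18 with RANKL, and 2.92, 2.89 and 2.70 with UD+RANKL. Its 3 groups did not overlap, with UD+RANKL between the others. Fanci fell by 0.72 ± 0.10 with RANKL (edgeR adjusted p = 2.73e-06) and was 0.46 ± 0.10 below Ctrl with UD+RANKL on the log2 scale, and its difference of 0.26 ± 0.10 between UD+RANKL and RANKL just missed the threshold (edgeR adjusted p = 0.051; 0.0417 without the third Ctrl library and 0.00985 with scaling to library totals alone).

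Usp1 was the most abundant of the genes with a role. It was at 47.11, 47.56 and 47.94 FPKM in Ctrl, 40.09, 37.98 and 37.55 with RANKL, and 54.48, 56.13 and 57.14 with UD+RANKL. No libraries overlapped between any of the groups, and UD+RANKL was the highest. The log2 fold change was -0.22 ± 0.05 with RANKL (edgeR adjusted p = 0.000529), 0.45 ± 0.05 with UD+RANKL against RANKL (edgeR adjusted p = 1.73e-07) and 0.24 ± 0.05 with UD+RANKL against Ctrl (edgeR adjusted p = 0.000221). Wdr48, its activating partner, was at 9.12, 8.81 and 10.27 FPKM in Ctrl, 8.12, 8.86 and 7.82 with RANKL, and 7.06, 7.21 and 6.88 with UD+RANKL. The UD+RANKL libraries were the lowest, and the Ctrl and RANKL libraries overlapped. Wdr48 fell by 0.32 ± 0.07 with UD+RANKL against RANKL (edgeR adjusted p = 0.000696), opposite in sign to Usp1. Cx3cr1 on the opposite strand spans 78.8% of Wdr48 and had a mean of 77.1 FPKM, and its part in the counts of Wdr48 was not tested.

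**Figure D2:**
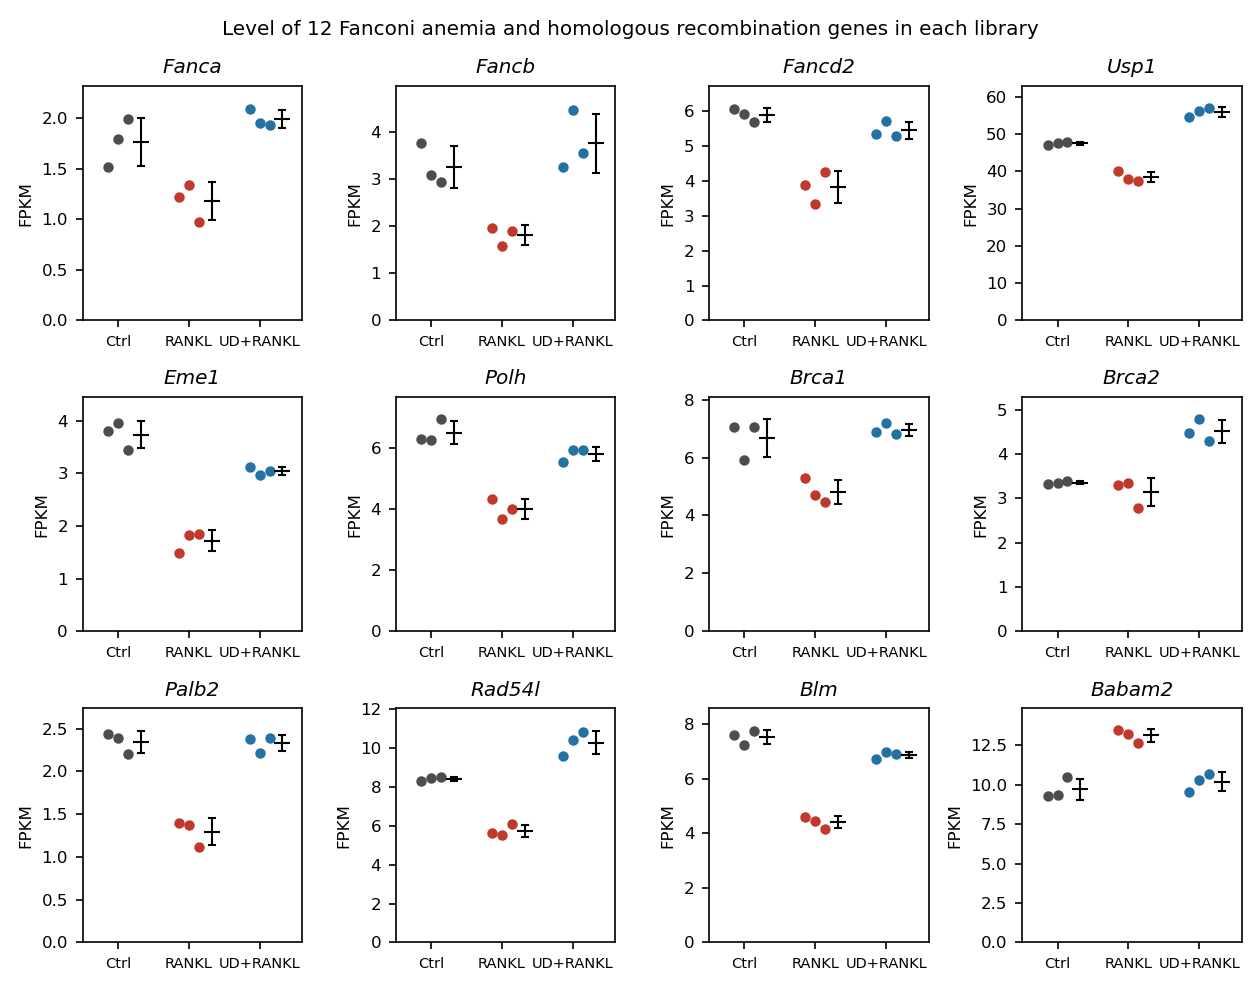
FPKM of 12 genes in each library (points, 3 per group) with the group mean and SD beside them (black). For Fanca, Fancb, Fancd2, Usp1, Eme1, Polh, Brca1, Palb2, Rad54l and Blm the 3 RANKL libraries lie below the Ctrl and UD+RANKL libraries, for Brca2 only UD+RANKL stands apart, and Babam2 is highest with RANKL.

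Among the nucleases that cut out the crosslink, 4 of 8 genes tested were lower with RANKL, 2 were higher with UD+RANKL against RANKL, and 4 were lower with UD+RANKL than in Ctrl. The share higher with UD+RANKL against RANKL was 25.0%, against 18.6% of all genes tested. Eme1, the partner that lets MUS81 cut branched DNA, was at 3.80, 3.96 and 3.45 FPKM in Ctrl, 1.49, 1.84 and 1.85 with RANKL, and 3.13, 2.97 and 3.04 with UD+RANKL. The groups did not overlap, with RANKL lowest. Its log2 fold change of -1.03 ± 0.15 with RANKL (edgeR adjusted p = 3.9e-06) was the largest fall of the 64 genes, and the rise with UD+RANKL against RANKL was 0.74 ± 0.15 (edgeR adjusted p = 0.000501). Mus81 itself was at 2.68, 2.67 and 3.16 FPKM in Ctrl, 2.66, 2.29 and 2.78 with RANKL, and 2.51, 2.80 and 2.99 with UD+RANKL, so all groups overlapped. Its log2 fold change with RANKL was -0.05, with a 95% interval from -0.33 to 0.23.

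Ercc4 and Ercc1, the XPF-ERCC1 nuclease that makes the unhooking cut, were also called in no comparison. With RANKL the log2 fold change of Ercc4 was -0.01 (95% interval -0.21 to 0.20) and that of Ercc1 was -0.16 (-0.49 to 0.16). Slx4, the scaffold that holds these nucleases, was among the 14 genes lower by more than 1.5-fold with RANKL (-0.71 ± 0.10, edgeR adjusted p = 1.69e-06), and was chosen for mention after its values were seen. Slx1b was at 1.82, 2.26 and 2.05 FPKM in Ctrl, 1.70, 1.51 and 1.30 with RANKL, and 1.17, 1.53 and 1.41 with UD+RANKL. Only the UD+RANKL against Ctrl difference of Slx1b passed the test (-0.58 ± 0.17, edgeR adjusted p = 0.00782), and with scaling to library totals alone the RANKL against Ctrl difference passed too (adjusted p = 0.0325).

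Of 5 translesion polymerase genes tested, 3 were lower and 1 was higher with RANKL, and 3 were higher with UD+RANKL against RANKL. Polh, which copies past ultraviolet lesions, was at 6.30, 6.26 and 6.94 FPKM in Ctrl, 4.34, 3.68 and 4.00 with RANKL, and 5.53, 5.93 and 5.95 with UD+RANKL. Its 3 groups did not overlap and RANKL was lowest. Polh fell by 0.61 ± 0.08 on the log2 scale with RANKL (edgeR adjusted p = 2.62e-06) and rose by 0.45 ± 0.08 with UD+RANKL against RANKL (edgeR adjusted p = 0.000253). Rev3l, the catalytic subunit of polymerase zeta, was at 5.64, 5.11 and 5.38 FPKM in Ctrl, 4.35, 3.99 and 3.04 with RANKL, and 5.26, 5.05 and 5.26 with UD+RANKL. The third RANKL library was the lowest for Rev3l, and the rise with UD+RANKL against RANKL was 0.37 ± 0.09 with this library and 0.23 without it (edgeR adjusted p = 0.00292 and 0.0134). Polk was at 10.03, 8.91 and 9.61 FPKM in Ctrl, 12.77, 11.65 and 11.20 with RANKL, and 14.06, 13.17 and 13.73 with UD+RANKL. Its Ctrl libraries were the lowest, so that Polk, which extends mismatched primer ends, was higher with RANKL by 0.41 ± 0.07 (edgeR adjusted p = 2.52e-05) and with UD+RANKL by 0.52 ± 0.07 (edgeR adjusted p = 1.05e-06), each against Ctrl.

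BRCA1 joins BARD1 as a ubiquitin ligase and directs broken ends to recombination, and it binds the helicase BRIP1, TOPBP1 and the deubiquitinating BRCC3 complex at damage sites. Of these 6 genes, 4 were lower and 1 was higher with RANKL, and 4 were higher and 1 lower with UD+RANKL against RANKL. Brca1 was at 7.05, 5.91 and 7.07 FPKM in Ctrl, 5.28, 4.69 and 4.45 with RANKL, and 6.88, 7.19 and 6.81 with UD+RANKL. Its RANKL libraries were below all others. The log2 fold change was -0.38 ± 0.08 with RANKL (edgeR adjusted p = 0.000346) and 0.45 ± 0.08 with UD+RANKL against RANKL (edgeR adjusted p = 0.000145). Brip1, also known as FANCJ, was at 5.30, 5.46 and 6.43 FPKM in Ctrl, 2.80, 2.87 and 2.84 with RANKL, and 4.07, 4.10 and 4.12 with UD+RANKL. UD+RANKL lay between the other groups without overlap. Brip1 fell by 0.93 ± 0.09 with RANKL (edgeR adjusted p = 6.41e-09) and was still 0.48 ± 0.08 below Ctrl on the log2 scale with UD+RANKL (edgeR adjusted p = 4.78e-05).

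Topbp1, an activator of ATR, was at 19.45, 19.74 and 20.56 FPKM in Ctrl, 15.44, 14.92 and 14.40 with RANKL, and 22.21, 22.21 and 22.44 with UD+RANKL. The groups did not overlap and UD+RANKL was highest, with a log2 fold change of 0.49 ± 0.05 against RANKL (edgeR adjusted p = 4.61e-08) and 0.16 ± 0.05 against Ctrl (edgeR adjusted p = 0.00511). Babam2, a scaffold of the BRCC3 complex, was highest with RANKL. It was at 9.31, 9.38 and 10.48 FPKM in Ctrl, 13.48, 13.26 and 12.68 with RANKL, and 9.57, 10.34 and 10.72 with UD+RANKL. Its RANKL libraries were above all others, with a log2 fold change of 0.52 ± 0.07 with RANKL (edgeR adjusted p = 1.22e-06) and -0.45 ± 0.07 with UD+RANKL against RANKL (edgeR adjusted p = 2.07e-05). Brcc3, the catalytic subunit of that complex, did not pass the test with RANKL (0.18 ± 0.09, edgeR adjusted p = 0.0876; 0.29 and 0.00977 without the first Ctrl library). It was higher with UD+RANKL than in Ctrl by 0.27 ± 0.09 (edgeR adjusted p = 0.013), with all UD+RANKL libraries above all Ctrl libraries.

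Among the genes that mediate strand exchange in recombination, 8 of 12 genes tested were lower and none was higher with RANKL, and 7 were higher and none lower with UD+RANKL against RANKL. Palb2 (ENSMUSG00000044702), the bridge between BRCA1 and BRCA2, was at 2.44, 2.39 and 2.20 FPKM in Ctrl, 1.40, 1.37 and 1.12 with RANKL, and 2.38, 2.22 and 2.39 with UD+RANKL. Only the RANKL libraries stood apart. Palb2 fell by 0.77 ± 0.11 with RANKL (edgeR adjusted p = 7.11e-06) and rose by 0.76 ± 0.11 with UD+RANKL against RANKL (edgeR adjusted p = 2.05e-05).

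Brca2 (ENSMUSG00000041147), which binds PALB2, was higher with UD+RANKL against RANKL, as Palb2 was, and unlike Palb2 was not called with RANKL and was higher with UD+RANKL than in Ctrl. Its FPKM was 3.32, 3.34 and 3.39 in Ctrl, 3.30, 3.34 and 2.77 with RANKL, and 4.47, 4.79 and 4.28 with UD+RANKL. Ctrl and RANKL overlapped and all UD+RANKL libraries were above both. The log2 fold change was -0.01 with RANKL (95% interval -0.17 to 0.15), 0.44 ± 0.07 with UD+RANKL against RANKL (edgeR adjusted p = 8.2e-05) and 0.43 ± 0.07 against Ctrl (edgeR adjusted p = 4.92e-05). Rad54l, a motor protein of the DNA translocase family, was at 8.29, 8.45 and 8.51 FPKM in Ctrl, 5.65, 5.50 and 6.10 with RANKL, and 9.61, 10.43 and 10.80 with UD+RANKL. RANKL was lowest and UD+RANKL highest without overlap. Rad54l rose by 0.75 ± 0.06 with UD+RANKL against RANKL (edgeR adjusted p = 9.39e-09) and was 0.29 ± 0.06 above Ctrl (edgeR adjusted p = 0.000522).

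The paralogs Xrcc2, Xrcc3, Rad51b, Rad51c and Rad51d, whose proteins act in complexes during recombination, held 3 patterns of calls, with Xrcc2 and Xrcc3 alike and Rad51b and Rad51d alike. Xrcc2 was at 2.12, 1.75 and 2.04 FPKM in Ctrl, 1.5, 1.2 and 1.38 with RANKL, and 2.40, 1.94 and 2.92 with UD+RANKL. Its rise of 0.75 ± 0.15 with UD+RANKL against RANKL (edgeR adjusted p = 0.000633) was kept without any 1 library, while its fall with RANKL was lost without the first Ctrl library or the second RANKL library (edgeR adjusted p = 0.0209, then 0.0736 and 0.0939). Xrcc3 fell by 0.50 ± 0.13 with RANKL (edgeR adjusted p = 0.00296) and rose by 0.45 ± 0.13 with UD+RANKL (edgeR adjusted p = 0.011), and Klc1 on the opposite strand spans 43.6% of it. Rad51c was at 3.32, 2.74 and 2.70 FPKM in Ctrl, 2.07, 2.12 and 2.24 with RANKL, and 2.24, 2.17 and 2.59 with UD+RANKL. The Ctrl libraries were the highest, and the RANKL groups overlapped. Its fall with RANKL (-0.36 ± 0.13, edgeR adjusted p = 0.0225) was lost without the first Ctrl library or the first or second RANKL library (adjusted p = 0.138, 0.0621 and 0.057). Rad51b and Rad51d were not called in any comparison. With RANKL, Rad51d had a log2 fold change of 0.07 (95% interval -0.14 to 0.28) and Rad51b one of -0.32 (-0.69 to 0.05).

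The MRN complex and the damage kinases sense the break. Of these 7 genes, 2 were lower and 1 was higher with RANKL, and 5 were higher and none lower with UD+RANKL against RANKL. The share lower with RANKL, 28.6%, was near the 30.2% of all genes tested, and the share higher was 14.3%, against 27.3%. With UD+RANKL against RANKL 71.4% were higher, against 18.6% of all genes tested. Mre11a, the nuclease of the complex, was at 15.22, 15.44 and 16.34 FPKM in Ctrl, 13.19, 13.28 and 13.03 with RANKL, and 16.26, 15.76 and 15.55 with UD+RANKL. The RANKL libraries lay below all others by a small amount, -0.16 ± 0.05 on the log2 scale (edgeR adjusted p = 0.0125; 0.0702 with no expression filter). Rad50, its partner, was at 20.09, 20.76 and 22.89 FPKM in Ctrl, 20.56, 19.87 and 18.21 with RANKL, and 21.58, 23.59 and 23.08 with UD+RANKL. Ctrl overlapped both other groups, and no difference passed the test (0.13 ± 0.06 with UD+RANKL against RANKL, edgeR adjusted p = 0.0898; 0.0496 without the third Ctrl library). Nbn rose by 0.27 ± 0.09 with UD+RANKL against RANKL (edgeR adjusted p = 0.0167), a call lost without the first or second RANKL library or the third UD+RANKL library (adjusted p = 0.0567, 0.0751 and 0.0699).

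Atm, the kinase that responds to double-strand breaks, was at 17.47, 15.94 and 16.36 FPKM in Ctrl, 15.93, 15.16 and 11.02 with RANKL, and 19.43, 19.63 and 19.03 with UD+RANKL. The UD+RANKL libraries were the highest, and the third RANKL library was far below the others. The rise with UD+RANKL against RANKL was 0.38 ± 0.09 (edgeR adjusted p = 0.00163) and 0.23 without that library (edgeR adjusted p = 0.00175). Against Ctrl the difference of 0.22 ± 0.09 (edgeR adjusted p = 0.0346) was lost without the second Ctrl, the third Ctrl or any 1 UD+RANKL library, with adjusted p from 0.0569 to 0.125, and with DESeq2 (0.14). Atr, the kinase that responds to stalled forks, was at 4.41, 4.97 and 5.06 FPKM in Ctrl, 5.70, 5.60 and 4.62 with RANKL, and 6.44, 6.77 and 6.41 with UD+RANKL. UD+RANKL was highest, and its difference from Ctrl was 0.44 ± 0.07 (edgeR adjusted p = 1.3e-05). The smaller differences of Atr were not stable, since 0.21 ± 0.07 between UD+RANKL and RANKL (edgeR adjusted p = 0.0161) became 0.12 without the third RANKL library (adjusted p = 0.0964) and was lost without the second UD+RANKL library (0.0703), and 0.23 ± 0.07 with RANKL (edgeR adjusted p = 0.00765) was lost without the first Ctrl or the first RANKL library (0.0527 and 0.0549) and with scaling to library totals alone (0.0902).

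Blm, the helicase that dissolves double Holliday junctions together with TOP3A and RMI1, was at 7.58, 7.24 and 7.73 FPKM in Ctrl, 4.58, 4.46 and 4.15 with RANKL, and 6.73, 6.96 and 6.91 with UD+RANKL. The groups did not overlap and RANKL was lowest. Blm fell by 0.69 ± 0.06 with RANKL (edgeR adjusted p = 8.85e-09) and rose by 0.56 ± 0.06 with UD+RANKL against RANKL (edgeR adjusted p = 7.34e-07). Rmi1 was at 5.72, 5.98 and 5.30 FPKM in Ctrl, 3.16, 3.42 and 3.43 with RANKL, and 4.31, 3.51 and 4.22 with UD+RANKL. Both RANKL groups were below Ctrl, by 0.68 ± 0.09 (edgeR adjusted p = 2.01e-06) and 0.49 ± 0.09 (edgeR adjusted p = 0.0001), and Hnrnpk on the opposite strand spans 12.3% of Rmi1 at a mean of 132 FPKM. In this group of 4 genes tested, 3 were lower with RANKL, and 1 was higher and 1 lower with UD+RANKL against RANKL. The lower one, Top3b (-0.23 ± 0.07, edgeR adjusted p = 0.0196), lost its call without the first or the third library of either RANKL group (adjusted p from 0.0503 to 0.102) and with scaling to library totals alone (0.138). Pms2, a mismatch repair gene listed in the FA pathway, was at 2.78, 2.81 and 3.2 FPKM in Ctrl, 2.22, 2.4 and 2.29 with RANKL, and 3.05, 3.12 and 3.04 with UD+RANKL. Its RANKL libraries were the lowest, by 0.26 ± 0.09 against Ctrl on the log2 scale (edgeR adjusted p = 0.0189). This call was lost without the third Ctrl or the first RANKL library (adjusted p = 0.0924 and 0.0608).

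**Figure D3:**
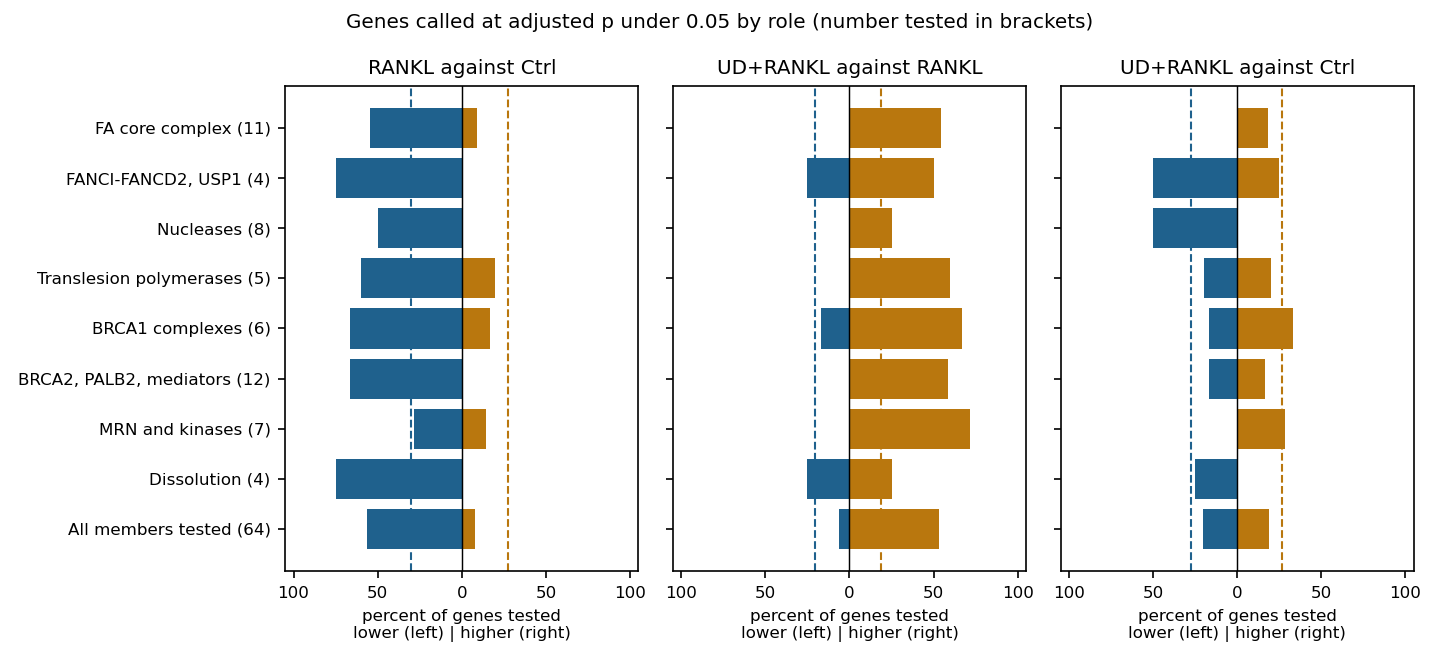
Percent of the genes tested in each role group that were called lower (left, blue) or higher (right, orange) in each comparison, with dashed lines at the percent of all genes tested. Over all 64 genes 56.2% were lower with RANKL and 53.1% were higher with UD+RANKL against RANKL, against 30.2% and 18.6% of all genes tested; the groups shown hold between 4 and 12 genes.

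Of the genes that only share a KEGG identifier with a repair gene, 5 were tested. Dennd2a, a regulator of membrane traffic, was the 1 gene of the 64 that rose by more than 1.5-fold with RANKL. It was at 2.51, 2.35 and 2.77 FPKM in Ctrl, 5.56, 5.62 and 5.61 with RANKL, and 4.24, 4.49 and 4.84 with UD+RANKL. Its groups did not overlap, with log2 fold changes of 1.23 ± 0.09 (edgeR adjusted p = 7.39e-11) with RANKL and -0.39 ± 0.08 (edgeR adjusted p = 0.000593) with UD+RANKL against RANKL. Rffl, an E3 ligase gene that carries the identifier of Rad51d, was at 3.41, 3.57 and 3.83 FPKM in Ctrl, 1.75, 2.41 and 1.62 with RANKL, and 2.26, 2.91 and 2.06 with UD+RANKL. It fell by 0.81 ± 0.14 with RANKL (edgeR adjusted p = 4.24e-05), while Rad51d itself was not called. Over the 59 genes with a role alone, 35 were lower and 4 higher with RANKL, 32 were higher and 3 lower with UD+RANKL against RANKL, and 10 were higher and 11 lower with UD+RANKL against Ctrl.

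The start sites of 47 of the 59 genes with a role were found in RefSeq promoter windows of 250 bases before to 50 bases after the start (GRCm38.p6). They were searched on both strands for the E2F motif, read by the transcription factors that switch on genes at the start of S phase, in the forms TTTCCCGC, TTTCGCGC, TTTGCCGC and TTTGGCGC. The motif was in 7 genes (14.9%), against 5.03% of the tested genes with a window and 2.6% of all genes with a window. The 7 genes were Bard1, Brca2, Cenps, Fancg, Rad51c, Rmi1 and Topbp1. In 4 of them it lay wholly before the start site, and stretches of 30 bases around it are given to show the sequence, read on the strand of the gene with the motif in capitals:
Fancg, chr4:43010335-43010364: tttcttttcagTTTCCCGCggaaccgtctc
Bard1, chr1:71103163-71103192: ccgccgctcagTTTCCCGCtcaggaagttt
Topbp1, chr9:103305187-103305216: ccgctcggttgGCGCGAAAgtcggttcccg
Brca2, chr5:150522442-150522471: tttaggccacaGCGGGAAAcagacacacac

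Fancg and Bard1 are on the minus strand and Topbp1 and Brca2 on the plus strand, and the motif begins 52, 209, 129 and 168 bases before the start site in Fancg, Bard1, Topbp1 and Brca2. With RANKL, 6 of the 7 genes with the motif were lower and none was higher (median log2 fold change -0.46), and of the 40 without it 21 were lower and 4 higher (median -0.27). With UD+RANKL against RANKL, 4 of 7 and 20 of 40 were higher (median 0.43 and 0.24). Among genes with a role and a window, 20 were lower with RANKL and higher with UD+RANKL against RANKL. Of these 20 genes 3 had the motif (15.0%), against 14.9% of the 47. Of the 11 called in neither of these comparisons, 0 had it. The difference between genes with and without the motif was not tested. Brca2, which holds the motif, was the gene of the 7 not called with RANKL, and Brca1, Palb2, Blm and Eme1, which were called lower, had no match in these windows. The CCAAT box was in 53.2% of the 47 genes and 43.6% of tested genes, and the CHR element (TTTGAA or TTCGAA) in 12.8% and 16.8%. A match describes these letters only and shows no binding.

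Other genes of crosslink repair and recombination that the KEGG rule does not include mostly moved in the same directions. Of 38 such genes tested, 27 were lower and 3 higher with RANKL (71.1% and 7.89%, against 30.2% and 27.3% of all genes tested). With UD+RANKL against RANKL, 25 were higher and 0 lower (65.8% higher, against 18.6%). The 3 higher with RANKL were Zswim7, the largest rise of this list (0.88 ± 0.17, edgeR adjusted p = 0.000163), Swi5 (0.38 ± 0.09) and Smarcal1 (0.33 ± 0.10). Radx, which acts at replication forks, was at 12.16, 11.66 and 11.40 FPKM in Ctrl, 5.10, 4.70 and 4.32 with RANKL, and 7.17, 7.92 and 7.20 with UD+RANKL. It fell by 1.23 ± 0.09 with RANKL (edgeR adjusted p = 7.65e-11) and rose by 0.57 ± 0.09 with UD+RANKL against RANKL (edgeR adjusted p = 2.8e-05). Rad51ap1, a cofactor of strand exchange, fell by 0.95 ± 0.09 with RANKL (edgeR adjusted p = 1.94e-08). Exo1, a resection nuclease, showed the largest rise of this list with UD+RANKL against RANKL, 0.90 ± 0.10 (edgeR adjusted p = 2.28e-07).

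The same direction was seen in genes of DNA replication and of cell division. Of 37 DNA replication genes tested, 26 were lower and 4 higher with RANKL, and 28 were higher and 1 lower with UD+RANKL against RANKL. They include the 9 tested genes of the FA and recombination pathways that the KEGG rule left out. How many of the proliferation markers are among them was not counted. Of 20 proliferation markers, 17 were lower and 2 higher with RANKL, and 19 were higher and none lower with UD+RANKL against RANKL. The summed FPKM of these markers was 728.8 to 782.73 in Ctrl, 473.83 to 479.84 with RANKL and 736.88 to 759.87 with UD+RANKL, while that of the 64 genes with a role was 394.72 to 405.71, 318.78 to 333.13 and 410.13 to 420.18. Both sums were lowest with RANKL without overlap, and the part of the proliferating cells in the result was not tested. Sums of FPKM are scaled to library totals alone. The fit also used scaling factors of 0.9589 to 0.9627 for RANKL and 1.014 to 1.025 for the other libraries. RANKL levels are therefore lower in FPKM, relative to the other groups, than in the fit. Mki67, a marker of cycling cells, was at 103.03, 100.32 and 113.46 FPKM in Ctrl, 50.98, 52.19 and 42.39 with RANKL, and 82.30, 85.66 and 84.35 with UD+RANKL.

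**Figure D4:**
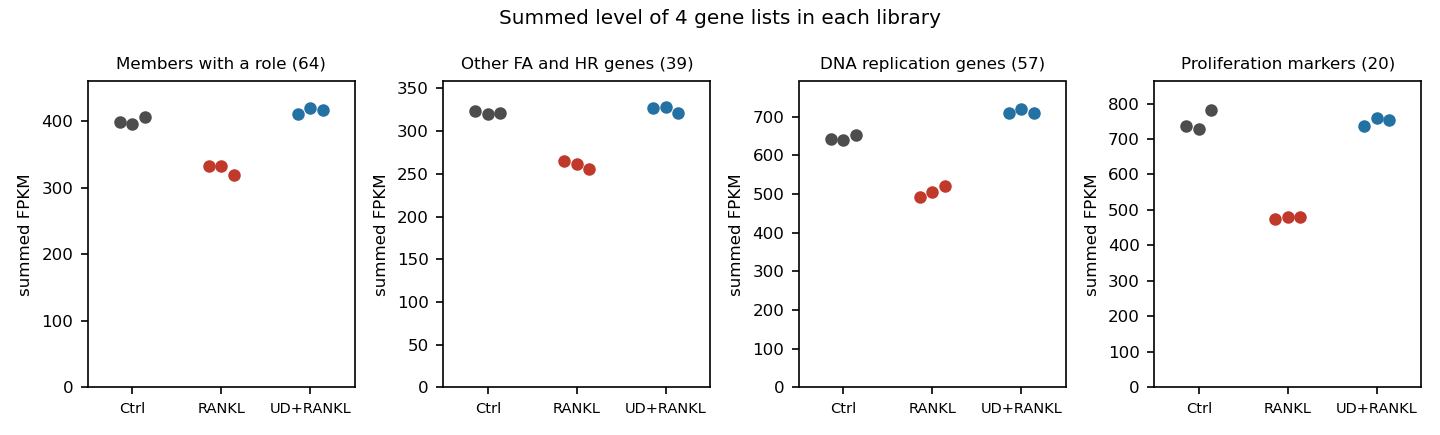
Summed FPKM in each library (points, 3 per group) of the 64 genes with a role, of 39 other FA and recombination genes, of 57 DNA replication genes and of 20 proliferation markers, each on an axis from 0. In all 4 lists the RANKL libraries lie below the Ctrl and UD+RANKL libraries, and the proliferation markers fall from at least 728.8 to at most 479.84. FPKM is scaled to library totals alone, without the further factors used in the fit. The 57 DNA replication genes include the 15 genes of the FA and recombination pathways that the KEGG rule left out.

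Of 19 E2F and DREAM regulators, 12 were lower and none higher with RANKL, and 11 were higher and 1 lower with UD+RANKL against RANKL. Of these regulators 63.2% were lower with RANKL, against 30.2% of all genes tested, and 57.9% were higher with UD+RANKL against RANKL, against 18.6%. With UD+RANKL against Ctrl, 2 were higher and 10 lower (10.5% and 52.6%, against 26.7% and 27.3%), with a median log2 fold change of -0.26. E2f2 fell by 2.28 ± 0.13 (edgeR adjusted p = 1.77e-12) and E2f8 by 1.35 ± 0.10 (edgeR adjusted p = 1.85e-10) with RANKL, and E2f2 was still lower with UD+RANKL against Ctrl (log2 fold change -1.81). Mybl2 and E2f3 were not called with RANKL (0.14 ± 0.08 and -0.12 ± 0.08). Both were higher with UD+RANKL than in Ctrl (1.10 ± 0.08 and 0.31 ± 0.08, edgeR adjusted p = 1.19e-10 and 0.00177). The 20 p53 target genes were divided. With RANKL, 7 were higher and 5 lower (35.0% and 25.0%, against 27.3% and 30.2% of all genes tested). With UD+RANKL against RANKL, 7 were higher and 7 lower (35.0% each, against 18.6% and 20.2%). Cdkn1a, the p53 target that arrests the cell cycle, fell by 0.35 ± 0.06 with RANKL (edgeR adjusted p = 2.27e-05), and Mdm2, the ubiquitin ligase of p53, rose by 0.56 ± 0.05 (edgeR adjusted p = 3.17e-09). The largest rise of this list with RANKL was that of Pmaip1 (1.91 ± 0.06), and the largest fall that of Zmat3 (-0.55 ± 0.06). With UD+RANKL against RANKL, Gadd45a fell most (-2.14 ± 0.21) and Zmat3 rose most (0.78 ± 0.06).

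Other repair pathways were counted without the 90 genes, and their lists share some genes with each other and with the lists above. With RANKL, 17 of 46 nucleotide excision repair genes were lower and 13 higher, 13 of 44 base excision repair genes were lower and 5 higher, 11 of 22 mismatch repair genes were lower and 4 higher, and 3 of 10 end-joining genes were lower and 2 higher. With UD+RANKL against RANKL, 18, 17, 13 and 5 of these genes were higher and 3, 3, 1 and 1 lower. Genes of the FA and recombination pathways that were left out because they also belong to DNA replication numbered 15, of which 9 were tested. With RANKL, 3 were lower and 3 higher (33.3% each, near the 30.2% and 27.3% of all genes tested). With UD+RANKL against RANKL, 4 were higher and 1 lower (44.4% and 11.1%, against 18.6% and 20.2%). Differences between these lists were not tested.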

How the data were processed

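Poly(A) RNA of 9 RAW264.7 libraries was sequenced strand-specifically as paired ends. The authors deposited raw counts, whole numbers of reads on each gene, and FPKM values which follow from these counts, exonic lengths and library totals. The table's model columns were taken as the RANKL group, as in the study's wording. The labels name mm10, but only 5 of the 90 genes have GRCm38 coordinates in the table, so overlaps between genes are by the table's own coordinates. Aligner and counting tool are not given in the sources used here.

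Counts were fitted with edgeR 4.0.16 (quasi-likelihood test, TMM, all 9 libraries in one fit, Benjamini-Hochberg over the 11995 genes tested) in R 4.3.3, with limma 3.58.1 and DESeq2 1.42.0 as alternatives, and tested on simulated data. Promoter windows are from RefSeq. The genes and lists were chosen with earlier results of these data known. Members named with values come from the 5 largest called rises and falls of each comparison without overlap, the extremes of each role group and a set of well-known genes. Slx4 and Faap100 were named outside these rules. Some members that met the rules are given without values, and others appear by count. Python 3.11.15, pandas 2.3.3 and matplotlib 3.10.9 served for tables and figures. Values of some members are not reported here.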

Additional observations from a re-analysis of the deposited data

How the results depend on the processing

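For the 43 genes named by rule, no called value changed sign under any of the 18 alternatives, and single values of the other genes were not compared. Among the 2322 values of these 43 genes compared with the values reported, 60 lost and 42 gained the call, and 49 differed in sign where neither was called. Requiring a fold change over 1.5 as well left 15 genes called with RANKL against Ctrl (1 higher and 14 lower), 8 with UD+RANKL against RANKL (8 higher and 0 lower) and 1 with UD+RANKL against Ctrl (1 higher and 0 lower), by construction. Scaling to library totals alone moved the median of all genes with RANKL from -0.03 to -0.11 and gave 2585 higher and 4415 lower genes in place of 3278 and 3628, and 3 of the 64 genes were then higher and 42 lower. For UD+RANKL against RANKL the same scaling moved the median of all genes from 0.00497 to 0.0909 and gave 3348 higher and 1709 lower genes in place of 2233 and 2418, and 41 of the 64 genes were then higher and 3 lower. With each library left out in turn, the genes called numbered 37 to 43 with RANKL against Ctrl (4 to 5 higher and 32 to 38 lower), 33 to 40 with UD+RANKL against RANKL (30 to 36 higher and 3 to 4 lower) and 19 to 25 with UD+RANKL against Ctrl (10 to 13 higher and 8 to 13 lower, 8 without the first or the third Ctrl library); the cause was not tested. Libraries with the same number had correlations of their deviations from -0.032 to 0.174, and those with different numbers from -0.184 to 0.109. The labels tie the numbers to no shared culture or day, and not every same-number pair was over 0.1, so the numbers were not taken as pairs. The replicate block gave 42, 38 and 26 genes called in the 3 comparisons, against 41, 38 and 25. At the depth of these libraries, genes near an FPKM of 1 had wide intervals, as for Faap100, whose log2 fold change with RANKL had a 95% interval from -0.48 to 0.41.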
